A study of Mus musculus with 3 samples.

Results

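Nuclear regulators of mitochondrial DNA expression are described here in the enamel organ of the mouse incisor. They were chosen by symbol from the deposited gene counts, and all 10 of them (Tfam, Polrmt, Tfb1m, Tfb2m, Polg, Lrpprc, Slirp, Nrf1, Gabpa and Ppargc1a) were found among the 20937 genes listed. The study deleted Stim1, the calcium sensor of the endoplasmic reticulum, in ameloblasts, the epithelial cells that form enamel, and sequenced RNA of the whole enamel organ at 4 weeks of age. The Stim1 cKO library came from AmelX-iCre positive mice with 2 floxed alleles (Stim1 fl/fl Cre+), the Stim1 HT library from AmelX-iCre positive mice with 1 floxed and 1 wild-type allele (Stim1 fl/wt Cre+), and the Stim1 Ctrl library from Cre-negative mice with 2 floxed alleles (Stim1 fl/fl Cre-). Floxed Stim1 was thus present in all 3 libraries, and Cre in Stim1 cKO and Stim1 HT. The amelogenin promoter drives this Cre, so that other cells of the dissected tissue should keep Stim1. Each genotype had 1 library, and the methods state that only male mice were used. Whether a library pooled several mice is not given in the sources used here.

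Mitochondria hold their own circular genome, which encodes subunits of the respiratory chain, 2 rRNAs and the tRNAs needed to translate them, while every protein that copies, transcribes and processes that genome is made from nuclear genes. The mitochondrial RNA polymerase POLRMT starts transcription together with TFAM, which bends the promoter DNA and also packs the genome into nucleoids, and TFB2M, which opens the promoter. POLG is the catalytic subunit of the replicative DNA polymerase, and LRPPRC and SLIRP form a complex that keeps mitochondrial mRNAs stable and polyadenylated. The transcription factors NRF1 and GABP bind promoters of many of these nuclear genes, and the coactivator PGC-1α, encoded by Ppargc1a, works through them.

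The libraries held 21496136, 20216507 and 28265960 counts, in the order Stim1 cKO, Stim1 HT and Stim1 Ctrl, which is the order of all sets of 3 values below unless stated. Levels are given in CPM, counts relative to the size of the library after its TMM correction for composition. Stim1 itself (chr7:102267806-102437319, GRCm38) stood at 72.8, 129 and 186 CPM, lowest in the library labelled as the knockout and between the others in the heterozygote, with a log2 fold change of -1.11 against both controls (edgeR's quasi-likelihood test, Benjamini-Hochberg adjusted p = 0.106). The 3 libraries differed in the summed levels of markers of several cell types. The 10 ameloblast markers summed to 4521 CPM in Stim1 cKO against 31558 and 23282 CPM in Stim1 HT and Stim1 Ctrl, but single markers went both ways, with 5 above both controls, 4 below and a median log2 fold change of 0.45. Other lists summed as follows, with Stim1 cKO first: the 14 skeletal muscle markers to 5262 against 22179 and 31019 CPM, the 5 brown fat markers to 62.8 against 336 and 143 CPM, the 7 erythroid markers to 1055 against 2328 and 1699 CPM, and the 10 mesenchyme, bone and odontoblast markers to 37553 against 51488 and 78613 CPM. By contrast, the 10 neuron markers summed to 1117 CPM in Stim1 cKO against 291 and 239 CPM. Of 9 photoreceptor markers, 6 were listed, all of them highest in Stim1 cKO, with sums of 539 against 12.8 and 11.3 CPM. Gnat1 and Prph2 had 3 counts or fewer in Stim1 HT, as had Prph2 and Nrl in Stim1 Ctrl. In such bulk samples fewer cells of a type and less RNA per cell cannot be told apart, and the part of these other cells in the values below was not tested.

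The sequence before the start of these genes is shown because both NRF1 and GABP, themselves among the 10 genes, bind promoters of this class. Windows of 250 bases before the RefSeq start (GRCm38.p6) were found for all 10 genes, in 11 windows since Nrf1 has 2. Each was searched on both strands for the core CCGGAAG bound by GABP and other ETS factors, for the NRF1 element GCATGCGC and for the cAMP response element core TGACGT, which do not overlap one another here. On the other strand these read CTTCCGG, GCGCATGC and ACGTCA. The ETS core was found before 5 of the 10 genes (Tfam, Polrmt, Polg, Slirp and Gabpa itself), against 6.91% of the 32851 RefSeq windows of the same length. The NRF1 element was found in 1 gene, Polrmt, against 2.26% of all windows, and the cAMP response element core in 2 genes, Lrpprc and Ppargc1a, against 6.47% of all windows. Only exact matches were counted, so variants of these elements were missed. A match is a run of letters and no evidence of binding. The windows of Polrmt, which held both an ETS core and an NRF1 element, and of Ppargc1a are given up to the first annotated exon base, with capitals at the matches. Those of Tfam, Gabpa and Polg lie within annotated exons of alternative or neighbouring transcripts, so only 30 bases around the ETS core are given. They were picked by value, as the 2 genes with the most negative fold changes and 1 with nearly equal levels in all libraries. Slirp and Polrmt held the core too, and a link of the core with the fold changes was not tested.
Polrmt promoter, chr10:79746582-79746831, minus strand: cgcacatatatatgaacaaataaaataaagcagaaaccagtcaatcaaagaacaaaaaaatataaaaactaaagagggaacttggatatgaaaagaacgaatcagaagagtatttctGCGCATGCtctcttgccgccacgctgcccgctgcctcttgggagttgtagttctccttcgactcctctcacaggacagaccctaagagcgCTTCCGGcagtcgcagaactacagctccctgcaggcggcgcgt
Ppargc1a promoter, chr5:51567727-51567975, minus strand: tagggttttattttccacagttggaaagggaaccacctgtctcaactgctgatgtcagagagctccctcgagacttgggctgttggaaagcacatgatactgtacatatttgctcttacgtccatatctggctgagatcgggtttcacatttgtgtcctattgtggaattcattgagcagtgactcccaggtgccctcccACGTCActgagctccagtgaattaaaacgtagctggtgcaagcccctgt
Tfam, chr10:71238073-71238102, minus strand: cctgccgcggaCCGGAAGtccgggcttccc
Gabpa, chr16:84835020-84835049, plus strand: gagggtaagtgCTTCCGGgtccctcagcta
Polg, chr7:79466293-79466322, minus strand: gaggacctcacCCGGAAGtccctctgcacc

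The largest differences among the regulators between Stim1 cKO and the controls were a higher level of Ppargc1a and lower levels of Gabpa and Tfam. The other 7 genes had log2 fold changes between -0.46 and -0.04. In the comparison of Stim1 cKO with both controls grouped, as the study grouped them, 0 of the 10 genes were called by edgeR at an adjusted p under 0.01 and a fold change over 2, where 0.0749% of the 18702 genes tested were called. DESeq2 also called 0 of them, where it called 11.6% of the genes with an adjusted p. At an unadjusted p under 0.05, edgeR gave 3 of the 10 genes, 1 of them higher and 2 lower, against 31.9% of all genes tested (18.5% higher and 13.4% lower), so their share was near the background. The test takes the 2 unlike controls as replicates and has 1 residual degree of freedom, and no genotype has a second library to show how far mice vary. In Stim1 cKO, 1 regulator lay above both controls, 7 below both and 2 between them, against 43.6%, 42.1% and 14.3% of all genes. None of the 10 differed over 2-fold from each control, against 27.4% of all genes (19.1% higher and 8.23% lower). Their median log2 fold change was -0.29, beside -0.01 over all genes tested. Of the 10, 9 had a negative value, as had 9421 of the 18702 genes tested, and the signs of those near 0 depended on the scaling.

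**Figure D1:**
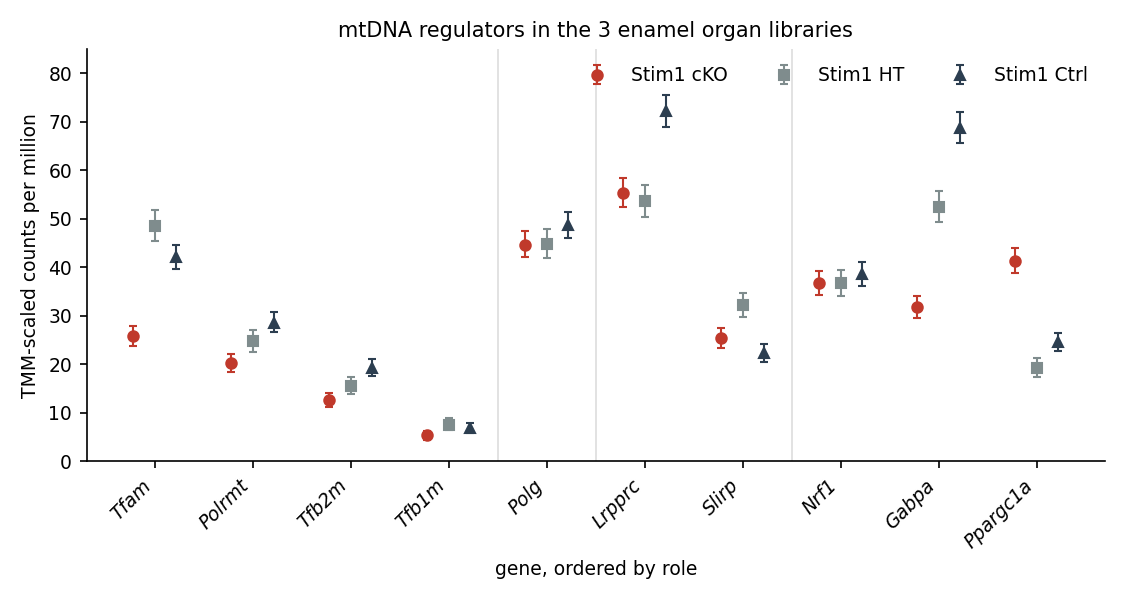
Level of each regulator in TMM-scaled CPM (y axis) for each gene (x axis, ordered by role, grey lines between roles), with 1 point for each library and bars for the 95% Poisson interval of its count. Tfam, Gabpa and Ppargc1a stand apart in Stim1 cKO (25.8, 31.8 and 41.4 CPM), whereas the points of Polg and Nrf1 lie close together.

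Among the genes that start transcription, Tfam (chr10:71225464-71238280) had 625, 957 and 1083 counts, or 25.8, 48.6 and 42.1 CPM. Stim1 cKO was the lowest library, and the controls were closer to each other than either was to it. The ratio of Stim1 cKO to the controls was 0.531 and 0.613, and the edgeR log2 fold change was -0.81 (adjusted p = 0.105). DESeq2 gave -0.84 with a standard error of 0.385 (adjusted p = 0.121). Tfam thus missed the threshold with either tool.

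Polrmt (chr10:79736123-79746581), the polymerase itself, stood at 20.3, 24.8 and 28.6 CPM (491, 489 and 737 counts). Its log2 fold change was -0.40 (edgeR adjusted p = 0.356), smaller than that of Tfam. Tfb2m (chr1:179528055-179546267), its promoter-opening partner, followed the same order at 12.7, 15.5 and 19.4 CPM (307, 306 and 498 counts), with a log2 fold change of -0.46 (edgeR adjusted p = 0.397). For both genes the step from Stim1 HT to Stim1 Ctrl, with log2 ratios of -0.21 and -0.32 for Stim1 HT over Stim1 Ctrl, was close to the step from Stim1 cKO to Stim1 HT, with -0.29 for each. Tfb1m (chr17:3519256-3557781), a paralogue of Tfb2m that methylates the small mitochondrial rRNA, was the scarcest of the 10 genes, at 5.37, 7.61 and 6.88 CPM (130, 150 and 177 counts). Its log2 fold change was -0.43 (edgeR adjusted p = 0.546), and the controls differed by less than the counting error, with a 95% counting interval of -0.18 to 0.47 for their log2 ratio. Tfb1m shares 3.93% of its exon bases with Tiam2 on the opposite strand, which had 16.9, 23.3 and 34.8 CPM.

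For replication, Polg (chr7:79446231-79466362) was at 44.7, 44.9 and 48.7 CPM (1083, 884 and 1253 counts). The libraries were nearly level, and the log2 fold change was -0.06 (edgeR adjusted p = 0.867). Polg shares 8.57% of its exon bases with Fanci, a DNA repair gene on the opposite strand, which had only 3.02, 7.31 and 8.01 CPM.

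The partners Lrpprc and Slirp differed in which library was highest. Lrpprc (chr17:84705247-84790789) had 55.4, 53.7 and 72.2 CPM (1340, 1057 and 1859 counts). Here the Cre-negative library was high and the other libraries were level, with a log2 ratio of 0.04 between Stim1 cKO and Stim1 HT and a counting interval of -0.07 to 0.16. Slirp (chr12:87443896-87452206) had 25.4, 32.2 and 22.3 CPM (615, 634 and 575 counts), highest in Stim1 HT, with Stim1 cKO between the controls. The edgeR log2 fold changes were -0.19 for Lrpprc and -0.10 for Slirp (adjusted p = 0.687 and 0.846). Slirp is the least certain of the 10 genes, since 93.9% of its annotated exon bases also lie in exons of Snw1, a splicing factor gene on the opposite strand with 110, 113 and 103 CPM, and 3.93% in exons of Alkbh1. Alkbh1, which encodes a nucleic acid demethylase, had 55.2 CPM in Stim1 cKO against 22.1 and 21.6 CPM. Whether reads were counted by strand is not given in the sources used here, and without strand the reads of such pairs cannot be told apart.

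Of the nuclear transcription factors, Nrf1 (chr6:30047988-30153458) was the steadiest of the 10 genes. It had 36.7, 36.8 and 38.6 CPM (889, 724 and 993 counts), ratios of 0.999 and 0.952 to Stim1 HT and Stim1 Ctrl, and a log2 fold change of -0.04 (edgeR adjusted p = 0.925). Gabpa (chr16:84834925-84863779), which encodes the DNA-binding subunit of GABP, had 31.8, 52.4 and 68.9 CPM (770, 1033 and 1772 counts). Stim1 cKO was lowest and the controls also differed, with Stim1 Ctrl highest, an order that Polrmt and Tfb2m shared. Polg and Nrf1 did not differ between Stim1 cKO and Stim1 HT beyond counting error. Their log2 ratios had counting intervals of -0.134 to 0.125 and -0.144 to 0.142. For Gabpa the ratios to Stim1 HT and Stim1 Ctrl were 0.607 and 0.462, and the log2 fold change was -0.93 (edgeR adjusted p = 0.105). DESeq2 gave -0.96 with a standard error of 0.397 (adjusted p = 0.0748). Gabpa shares 6.98% of its exon bases with Atp5j, an ATP synthase subunit gene that starts on the opposite strand and had 148, 250 and 196 CPM.

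Ppargc1a (chr5:51454250-51567726) went the other way, with 41.4, 19.3 and 24.6 CPM (1001, 380 and 633 counts). It was the only regulator above both controls on this scale. The ratios were 2.14 to Stim1 HT and 1.68 to Stim1 Ctrl, and the edgeR log2 fold change was 0.91 (adjusted p = 0.0920). DESeq2 gave 0.88 with a standard error of 0.433 (adjusted p = 0.157). Beside Ppargc1a, the neuron markers were 1117 against 291 and 239 CPM in sum, with 8 of 10 above both controls, and the 6 listed photoreceptor markers were all above both. The brown fat and muscle markers were lower in Stim1 cKO, with 5 of 5 and 11 of 14 genes below both controls. The part of any of these cell types in the value of Ppargc1a was not tested.

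**Figure D2:**
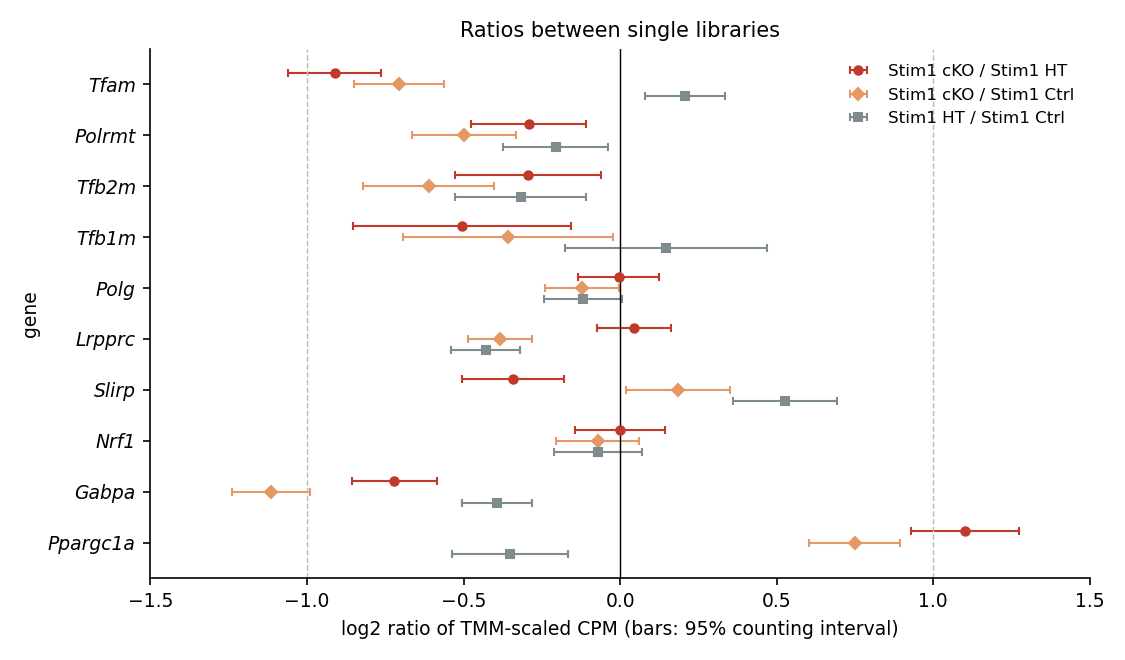
The log2 ratio of TMM-scaled CPM between single libraries (x axis) for each regulator (y axis), with bars for the 95% counting interval and dashed lines at 2-fold. Tfam and Gabpa lie left of 0 in both ratios of Stim1 cKO to a control and Ppargc1a right of 0, while Slirp and Lrpprc have ratios on each side.

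Between the controls, 0 of the 10 regulators differed over 2-fold, where 13.5% of all genes did, and the median log2 ratio, Stim1 HT over Stim1 Ctrl, was -0.16. The widest was Slirp, with 0.53 (counting interval 0.36 to 0.69), followed by Lrpprc with -0.43, Gabpa with -0.39 and Ppargc1a with -0.35. These intervals and all those above cover counting error only.

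The choice of scaling decided the side on which the steadier genes fell. With RLE scaling 1 regulator was above both controls, 5 below and 4 between, and with upper-quartile or plain library size scaling 3 were above, 5 below and 2 between. The genes that joined Ppargc1a above both controls were then Polg and Nrf1, with log2 fold changes of 0.19 and 0.22 with library size only. With it the median was 0.25 over all genes and -0.030 over the regulators, so that the gap between them was -0.28, as with TMM and upper-quartile scaling (medians 0.12 and -0.16). Tfam, Polrmt, Tfb1m, Tfb2m and Gabpa were below both controls under each of these scalings, and Ppargc1a above.

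**Figure D3:**
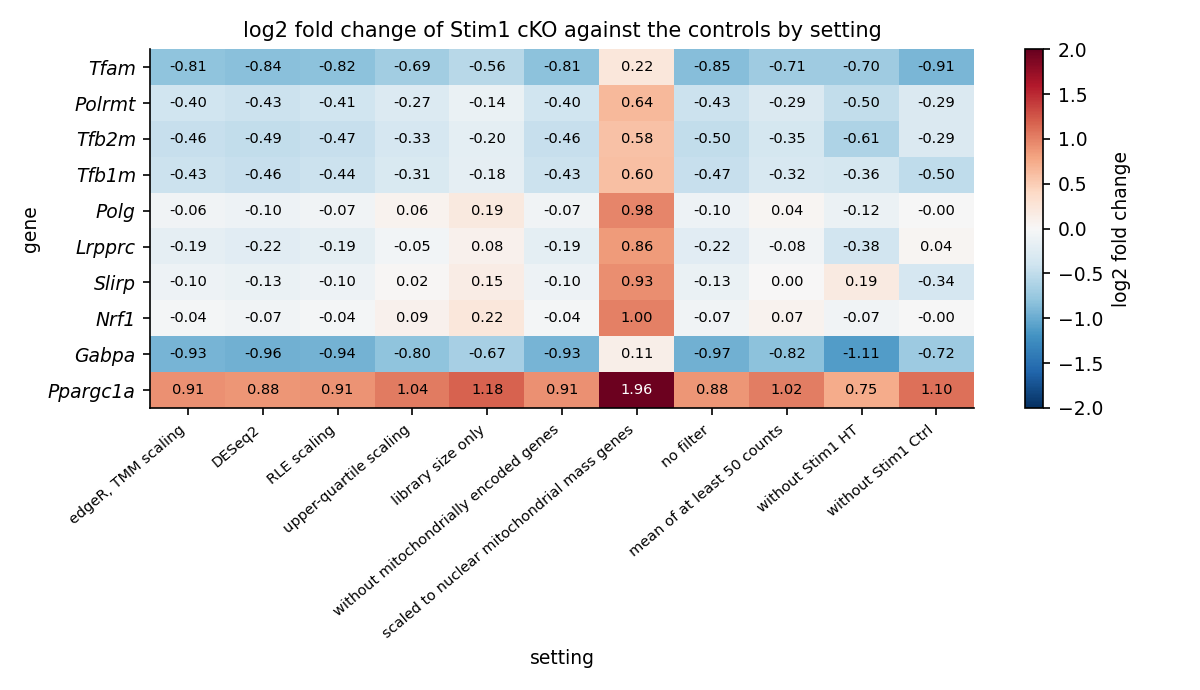
The log2 fold change of Stim1 cKO against the controls (colour and printed value) for each regulator (rows) under each setting (columns). Ppargc1a is positive in every column (0.75 to 1.96). Gabpa, Tfam, Polrmt, Tfb1m and Tfb2m are negative in all but the scaling to nuclear genes for mitochondrial proteins (0.11, 0.22, 0.64, 0.60 and 0.58). Polg, Lrpprc, Slirp and Nrf1 change sign in that and other settings.

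Levels of different genes were compared as CPM per kilobase of annotated exon, taken over all annotated transcripts of a gene. That length can exceed the transcript in use, so the order between genes also depends on the annotation. In Stim1 Ctrl the order began with Gabpa at 12.1, Tfam at 9.48 and Lrpprc at 8.49 CPM per kilobase, each above the next beyond counting error, and ended with Nrf1 at 3.75 and Ppargc1a at 3.73, which did not differ beyond it, and Tfb1m at 1.91. In Stim1 HT Tfam led with 10.9, not beyond counting error above Slirp with 10.4, and Gabpa followed with 9.22, while Ppargc1a was again next to last with 2.93. Stim1 cKO had another order. Slirp led with 8.19, beyond counting error above Lrpprc with 6.51. After Lrpprc came Ppargc1a with 6.27, Tfam with 5.82 and Gabpa with 5.59 CPM per kilobase, without a gap beyond counting error between these neighbours. Ppargc1a was thus 3 in the order in Stim1 cKO and 9 in each control. Tfb1m was last in every library, and the value of Slirp carries the uncertainty of its shared exons.

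Ratios of genes within a library do not depend on the scaling. Ppargc1a had 1.13 counts per count of Nrf1 in Stim1 cKO (95% counting interval 1.03 to 1.23), against 0.525 in Stim1 HT and 0.637 in Stim1 Ctrl. Tfam per Nrf1 was 0.703 against 1.32 and 1.09, and Gabpa per Nrf1 0.866 against 1.43 and 1.78. In each of these the interval of Stim1 cKO lay clear of those of both controls. The pair that starts transcription kept its ratio, with 0.625, 0.626 and 0.676 counts of Tfb2m per count of Polrmt, whereas Tfam per Polrmt was 1.27, 1.96 and 1.47. The interval of that ratio in Stim1 cKO, 1.13 to 1.44, overlapped that of Stim1 Ctrl, 1.34 to 1.62. Slirp per Lrpprc was 0.459 in Stim1 cKO, between 0.600 in Stim1 HT and 0.309 in Stim1 Ctrl.

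Close partners and paralogues outside the 10 genes were also compared. Gabpb1, which encodes the other subunit of GABP, had 548, 527 and 644 counts, so that Gabpa per Gabpb1 was 1.41, 1.96 and 2.75, lowest in Stim1 cKO. Polg per Polg2, the accessory subunit of the same polymerase, was 4.18, 5.67 and 7.20. Ppargc1b, a paralogue of Ppargc1a, had 39.4 CPM in Stim1 cKO against 11.5 and 16.9 CPM, a log2 fold change of 1.47 (edgeR adjusted p = 0.0532). Ppargc1a per Ppargc1b was therefore lower in Stim1 cKO, at 1.05 against 1.67 and 1.46, with an interval of 0.96 to 1.15 that lay below both others.

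**Figure D4:**
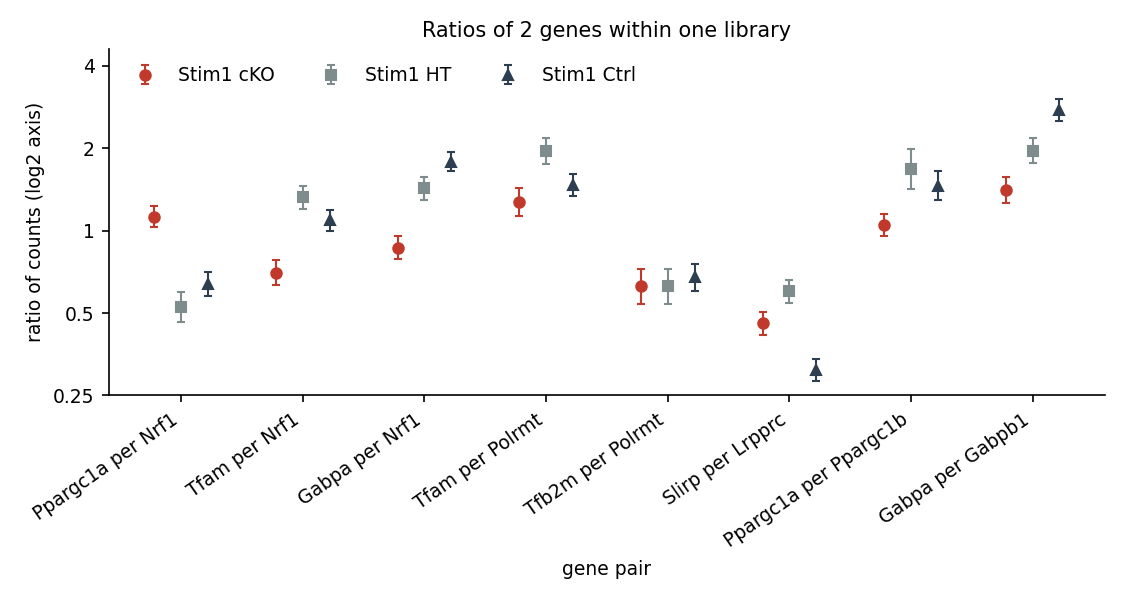
Ratio of the counts of 2 genes within a library (y axis, log2 scale) for 8 gene pairs (x axis), with 1 point for each library and bars for the 95% counting interval. Ppargc1a per Nrf1 is highest in Stim1 cKO (1.13), Tfam per Nrf1 and Gabpa per Nrf1 are lowest there (0.703 and 0.866), and Tfb2m per Polrmt is level.

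With TMM scaling Gabpa had the largest absolute log2 fold change of the 10 genes (-0.93 against 0.91 for Ppargc1a, which was larger with upper-quartile or library size scaling, without Stim1 Ctrl, and when genes under 50 mean counts were left out). Its pattern over the 3 libraries was compared with 105 other genes of the mitochondrial lists that had a mean of at least 50 counts. The measure was the Euclidean distance between the pair of log2 ratios of Stim1 cKO and of Stim1 HT to Stim1 Ctrl. Nearest were Pprc1, which encodes a PGC-1-related coactivator, at 0.113, Top3a, a topoisomerase that separates replicated mitochondrial genomes, at 0.121, and Taco1, a translational activator of cytochrome oxidase, at 0.196. Over 3 libraries such likeness is common, since 101, 119 and 345 of all 14977 genes with that mean count were as near or nearer.

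Other genes of the mitochondrial DNA pathway were taken as lists, 107 genes in all, of which edgeR called 0 and DESeq2 called 18, 9 in each direction, where DESeq2 called 11.6% of all genes. At an unadjusted p under 0.05 edgeR gave 11 higher and 23 lower, where 18.5% and 13.4% of all genes were. Of 12 genes for mitochondrial DNA replication and the nucleoid, 0 were at p under 0.05, and the median log2 fold change was -0.33, from Top3a with -1.01 to Polg2 with 0.54. The 6 genes for elongation and termination had a median of 0.04 and likewise 0 at p under 0.05, with Tefm, the elongation factor, at -0.56 and Mterf1a, a termination factor, at 0.41 as the ends among genes with at least 50 mean counts. Of the 23 genes for processing and decay of mitochondrial RNA, 0 were called by either tool, 19 lay below both controls and 0 above (42.1% and 43.6% of all genes), and 6 were lower at p under 0.05 (13.4% of all genes). Their median was -0.53, with Hsd17b10, a subunit of mitochondrial RNase P, at -0.86 and Pnpt1, a polynucleotide phosphorylase, at 0.05.

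The 11 mitochondrial translation factors had a median of -0.71, and 8 lay below both controls (42.1% of all genes). At an unadjusted p under 0.05, edgeR gave 4 of them lower (13.4% of all genes). DESeq2 called 2 of them lower, where it called 909 of the 17283 genes with an adjusted p lower. Mrrf, the ribosome recycling factor, had 9.05 CPM in Stim1 cKO against 26.4 and 24.6 CPM (log2 fold change -1.49, edgeR adjusted p = 0.0465), and was called lower by DESeq2 (adjusted p = 0.00672), while the initiation factor gene Mtif2 was at 0.47. The 17 other coregulators and transcription factors of mitochondrial biogenesis were spread evenly, with 7 above both controls, 7 below and a median of -0.05. Their ends were Ppargc1b and Pparg, an adipocyte nuclear receptor with 3.02 CPM in Stim1 cKO against 10.9 and 7.81 CPM and a log2 fold change of -1.63 (edgeR adjusted p = 0.107). Brown fat markers were lower with Pparg, at 62.8 against 336 and 143 CPM in sum, and their part in it was not tested. For mitochondrial nucleotide supply, 8 of 9 genes were listed, with a median of 0.12, from Suclg1, a succinyl-CoA ligase subunit, with -1.39 to the thymidine phosphorylase gene Tymp with 3.44, which had 7.27, 1.17 and 0.194 CPM. Of these 8 genes edgeR called 0, while DESeq2 called 2 lower, Suclg1 among them (909 of the 17283 genes with an adjusted p).

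For the products, the mitochondrially encoded genes and a list of nuclear genes for mitochondrial proteins were set beside the regulators. All 15 mitochondrially encoded mRNAs and rRNAs together had 46123, 26486 and 30930 CPM. Of these genes 12 were above both controls (43.6% of all genes) and 9 were higher at an unadjusted p under 0.05 (18.5% of all genes). None was called by edgeR. DESeq2 called 9 of them higher, where it called 1089 of the 17283 genes with an adjusted p higher. Their median log2 fold change was 1.34. The ends were mt-Rnr1, the small rRNA, with 2.85 (2132, 323 and 268 CPM, edgeR adjusted p = 0.0201), and mt-Co1, a cytochrome oxidase subunit, with -0.16. The 15 nuclear genes for mitochondrial enzymes, carriers and import proteins used as a measure of mitochondrial mass were all below both controls (42.1% of all genes), with a median of -0.92 and sums of 1811, 3614 and 3831 CPM. Here edgeR called 0 and gave 9 lower at p under 0.05 (13.4% of all genes). DESeq2 called 5 lower (909 of the 17283 genes with an adjusted p). The ends were Cs, citrate synthase, at -1.39 and Tomm20, an import receptor, at -0.29. Single regulators, from -0.93 to 0.91, overlapped the values of both lists. The skeletal muscle markers, from a tissue rich in mitochondria, were lower with them, with 11 of 14 below both controls, and their part in these values and in those of Tfam and Gabpa was not tested.

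**Figure D5:**
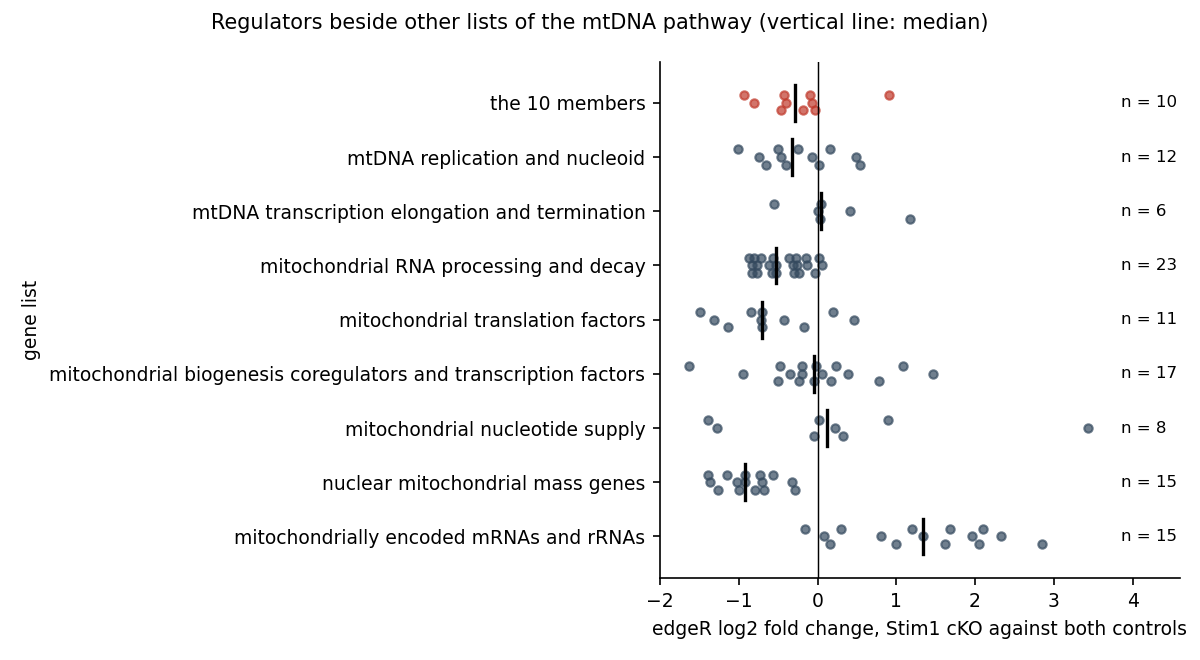
The edgeR log2 fold change of Stim1 cKO against both controls (x axis) for every gene of the 10 regulators and of 8 related lists (y axis), with 1 dot for each gene and a vertical line at the median of the list. The median of the regulators is -0.29, that of the nuclear mitochondrial mass genes -0.92 and that of the mitochondrially encoded mRNAs and rRNAs 1.34, and the dots of the regulators overlap those of both lists.

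Set against the genes that start transcription and stabilise its products, mitochondrial RNA was more abundant in Stim1 cKO. There were 1786 counts of mitochondrially encoded mRNA and rRNA per count of Tfam in Stim1 cKO (counting interval 1652 to 1935), against 545 in Stim1 HT and 735 in Stim1 Ctrl. Per count of Polrmt the values were 2274, 1067 and 1080, where the controls did not differ beyond counting error. Per count of Lrpprc they were 833, 494 and 428, and per count of Slirp 1815, 823 and 1384. In each of these 4 ratios Stim1 cKO was the highest library. The sum of mitochondrial RNA was itself highest there, at 46123 against 26486 and 30930 CPM, while the median log2 fold change over all genes was -0.01. Such a ratio is therefore also highest in Stim1 cKO for genes with level expression, such as Nrf1, and is not particular to these 4 genes. The methods name enrichment of polyadenylated RNA and the labels name a different library kit, so these ratios compare libraries and are not molecules per cell. How well each mitochondrial RNA was captured was not tested.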

How the data were processed

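RNA of whole enamel organs from incisors was sequenced in 3 libraries, 1 per genotype. The authors trimmed and aligned the reads with STAR and deposited raw counts per gene symbol, without normalization. The genome build, annotation, counting tool and strand setting are not given in the sources used here. The methods name a directional NEBNext kit and the labels a SMARTER kit. Each listed gene had at least 1 count in every library. A table of the authors' own fold changes and p-values was not used.

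Stim1 cKO was tested against Stim1 HT and Stim1 Ctrl with edgeR 4.0.16 in R 4.3.3 (TMM factors 1.13, 0.975 and 0.911, filterByExpr, 18702 genes, quasi-likelihood test, Benjamini-Hochberg adjustment, common dispersion 0.106, prior degrees of freedom 4.15). Genes were called at an adjusted p under 0.01 and a fold change over 2, as in the methods. DESeq2 1.42.0 and other scalings and filters were alternatives. The code of the fit was tried on simulated counts. Those gave both controls the same expected levels, so they cannot show how the test behaves with these unlike controls. The limit of detection was set at 3 counts, which is 0.117 to 0.152 CPM. Counting intervals are exact 95% intervals of the ratio of 2 counts, or Poisson intervals of 1 count. The controls are different genotypes, so p-values measure the spread between those libraries only. Positions and exon lengths came from GENCODE M21 on GRCm38 (20712 symbols found) and promoter sequences from RefSeq on GRCm38.p6. Python 3.11.15, pandas 2.3.3 and scipy 1.17.1 were used. In 25 listed genes the symbol had become a date. None of these was in a gene list, but they were kept in the counts over all genes. The 10 genes and all lists were chosen with earlier results of these data known. Named were the 10 genes, Stim1, the ends of each pathway list (mean count 50 or more), and the 3 nearest to Gabpa. Gabpb1, genes with shared exons and the marker genes with 3 counts or fewer were named after their values were seen. A marker gene is not reported here and was left out of its list.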

Additional observations from a re-analysis of the deposited data

How the results depend on the processing

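None of the 10 regulators was called under DESeq2, RLE, upper-quartile or library size scaling, without mitochondrially encoded genes, without a filter, with a mean of at least 50 counts, at an adjusted p under 0.05, or without a fold change minimum. Scaling to the summed counts of the nuclear mitochondrial mass genes, chosen after seeing the data, called 1, Ppargc1a (log2 fold change 1.96, edgeR adjusted p = 0.00731), along with 1900 genes higher and 38 lower of all 18702, moved the median of the regulators to 0.75, and reversed Tfam to 0.22, Polrmt to 0.64, Tfb1m to 0.60, Tfb2m to 0.58, Polg to 0.98, Lrpprc to 0.86, Slirp to 0.93, Nrf1 to 1.00 and Gabpa to 0.11. The median over all genes was then 1.03, and the gap of the regulators to all genes stayed at -0.28, as with TMM, and the muscle markers were lower with the mass genes. Near 0, other settings also reversed values. Upper-quartile scaling gave Polg 0.063, Slirp 0.018 and Nrf1 0.090, library size only gave Polg 0.19, Lrpprc 0.079, Slirp 0.15 and Nrf1 0.22 with a median of -0.030, and keeping only genes with mean counts of 50 or more gave Polg 0.044, Slirp 0.0040 and Nrf1 0.071. Leaving out Stim1 Ctrl or Stim1 HT, with no test, gave Slirp from -0.34 to 0.19, Lrpprc from -0.38 (without Stim1 HT) to 0.045 (without Stim1 Ctrl), and a median of the regulators from -0.37 to -0.29. That median was -0.16 with upper-quartile scaling and -0.18 with mean counts of 50 or more, where the gap to all genes was -0.17. In all, 21 of 100 values reversed, all but those of the mass scaling among Polg, Lrpprc, Slirp and Nrf1. Over all genes the number called by edgeR was 14, and it was 50 with RLE, 138 with upper-quartile scaling, 6 with library size only, 907 without a filter, 6 with mean counts of 50 or more, and 1811 at an adjusted p under 0.05, while DESeq2 called 1998. Of the pathway lists, DESeq2 called 18 genes. The cause of these differences was not tested. No paired analysis was possible because each genotype had 1 library.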
